A study of Triticum aestivum with 8 samples.

Results

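This account covers 81 probe sets whose signal in wheat leaves was far higher in the cultivar C306 than in the cultivar WL711 on every array, with or without watering. A probe set was taken when its lowest value on the 4 C306 arrays lay at least 3 above its highest value on the 4 WL711 arrays, on a log2 scale, which is an 8-fold step. The members were thus chosen by the same C306 and WL711 values that are compared below. The rule found 81 of 61179 probe sets, after 111 Affymetrix control probe sets had been set aside. The opposite rule, with all WL711 arrays at least 3 above all C306 arrays, found 70.

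Leaves of bread wheat (Triticum aestivum) were collected from plants labelled as 48 days old. Droughted plants received no water from day 27, and control plants were watered throughout. The 4 groups were C306 drought, C306 control, WL711 drought and WL711 control, with 2 arrays each that the labels call biological replicates. C306 is known among breeders as drought tolerant and WL711 as drought susceptible. The labels name no transgene, mutation or agent other than withheld water, and do not say how many plants stood behind an array, so p-values measure the spread between these arrays.

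An Affymetrix probe set is a group of short probes designed on one expressed sequence, and its signal measures hybridisation of labelled leaf RNA to those probes. Bread wheat carries A, B and D subgenomes, so that most genes exist as closely related homoeologous copies. Cultivars are known to differ in how strongly a copy is expressed, in its sequence, and in whether it is present. Less transcript, a transcript that the probes match poorly and a missing gene copy cannot be told apart in these values. Nor can fewer cells of a type in the leaf be told apart from less RNA per cell.

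The deposited values are log2 signals from RMA, centred so that the median of each probe set over the 8 arrays is 0. For the 81 probe sets this fixes a symmetry: the lowest C306 value and the highest WL711 value are equal in size and opposite in sign, to within 1e-06. The values therefore give differences between arrays, not levels of a transcript, and how strongly a probe set lit up in either cultivar is not known. For the same reason the label "leaf" could not be checked by the level of leaf genes. In none of the 31 probe sets of the leaf mesophyll marker list (3 genes) did all C306 arrays lie above all WL711 arrays, against 10.2% of all probe sets. The largest gap in the list was -0.014. The opposite order, with all WL711 arrays above all C306 arrays, was not counted for this list.

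Arrays differed in some technical readings. WL711 control replicate 1 had the widest interquartile range over all probe sets, 0.482, beside 0.221 to 0.302 elsewhere. limma's array weight was lowest, 0.569, on both WL711 control arrays. With 2 arrays a group, both arrays of a group must get the same weight, so it cannot mark either array as the poorer. Hybridisation controls, which are spiked in before scanning, had centred means of -0.91, -0.98 and -0.72 on 3 arrays (C306 drought replicate 1, C306 control replicate 2, WL711 control replicate 1). Elsewhere these means lay between 0.022 and 0.13. Poly-A controls averaged -0.048 and -0.044 on C306 drought, 0.49 and 0.43 on C306 control, 0.23 and -0.32 on WL711 drought, and -0.59 and -0.092 on WL711 control. With any 1 array left out, the rule found 83 to 106 probe sets. Such a removal cannot narrow a gap, so this count could only stay or rise. The part of these readings in the results below was not tested.

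The size of the gap between cultivars came first. It ran from 3.01 to 8.50 with a median of 3.61 (log2). There were 51 probe sets with a gap from 3 to under 4, 30 with a gap of at least 4 and 13 with a gap of at least 5. As differences of group means, C306 stood above WL711 by 3.07 to 9.12 under drought (median 4.34) and by 3.44 to 8.61 under control watering (median 4.59). All of these values follow from the rule that chose the probe sets and are given without a test. Over all probe sets, 10.2% had all C306 arrays above all WL711 arrays by any amount. A higher call in C306 (limma adjusted p under 0.05) was made for 4.2% of all probe sets under drought and for 6.67% under control watering, and nothing is read from either share here.

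**Figure D1:**
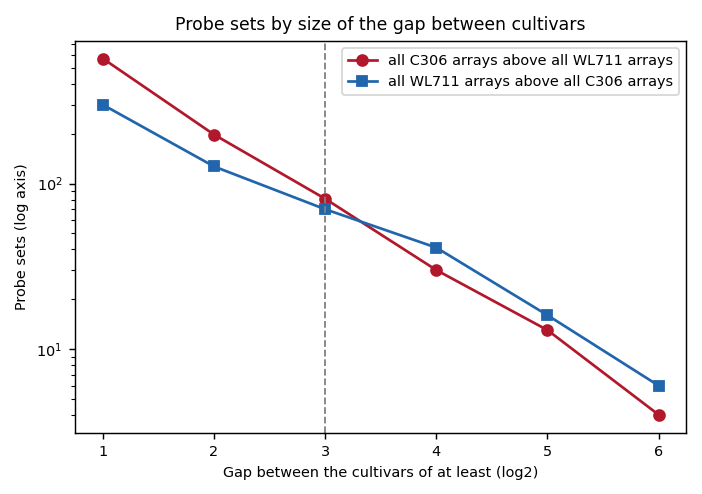
Number of probe sets (log axis) whose cultivars are separated by at least the gap on the horizontal axis (log2), with C306 higher (circles) or WL711 higher (squares); the dashed line marks the rule's value of 3. With C306 higher and with WL711 higher, the counts are 571 and 300 at a gap of 1, 81 and 70 at 3, 30 and 41 at 4, and 4 and 6 at 6.

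The widest gap belonged to TaAffx.113846.1.S1_s_at. It read 4.75 and 4.63 on C306 drought, 4.25 and 4.40 on C306 control, -4.61 and -4.25 on WL711 drought, and -4.29 and -4.30 on WL711 control (centred log2, replicates 1 and 2). Within each cultivar its 4 arrays stayed within 0.50 and 0.36 of each other, for C306 and WL711 in that order. The group means of the cultivars differed by 9.12 under drought and 8.61 under control watering.

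Ta.2895.1.S1_x_at had the next widest gap, 6.56, and Ta.2895.1.S1_at, designed on the same source sequence, had 6.04. Ta.2895.1.S1_x_at read 4.01 and 3.68 on C306 drought, 3.28 and 3.55 on C306 control, -3.42 and -3.74 on WL711 drought, and -3.28 and -3.63 on WL711 control. Its partner showed the same step, at 3.02 to 3.89 on the C306 arrays against -3.36 to -3.02 on the WL711 arrays.

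Ta.10508.2.S1_a_at had a gap of 6.14, between those of the Ta.2895 pair, and is paired by the platform annotation with LOC543418. It read 3.12 and 3.07 on C306 drought, 3.20 and 3.34 on C306 control, -4.04 and -3.59 on WL711 drought, and -3.07 and -3.94 on WL711 control. The C306 arrays lay close together, and the WL711 arrays were spread over 0.98. The other probe set of LOC543418, Ta.24991.1.S1_x_at, did not separate the cultivars over all 8 arrays. Its C306 minus WL711 difference was -0.049 under drought and -0.41 under control watering. On the control arrays alone C306 lay lower in it without overlap. The higher signal in C306 was thus seen in 1 of the 2 probe sets of LOC543418.

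The rest of the 12 widest gaps had no gene in the annotation. They were 5.94 for Ta.1112.1.S1_at, 5.78 for Ta.27457.5.S1_x_at, 5.58 for TaAffx.24911.1.S1_at, 5.56 for Ta.1929.1.S1_at and 5.50 for Ta.15207.1.S1_at. The last of the 12 were Ta.23366.2.S1_at at 5.43, Ta.11896.1.A1_s_at at 5.14 and Ta.7593.1.S1_at at 5.12. Among these, Ta.27457.5.S1_x_at and Ta.1929.1.S1_at had one WL711 array apart from the others: WL711 control replicate 1 read -2.89 and -2.78 in the 2 probe sets, against -4.45 to -4.28 and -4.18 to -3.69 on the other WL711 arrays.

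At the other end, the 6 smallest gaps taken by the rule were 3.06 for Ta.19222.1.S1_x_at, Ta.7304.1.A1_at and Ta.11725.2.S1_at, 3.05 for TaAffx.33753.2.S1_s_at, 3.04 for Ta.30866.1.S1_at and 3.01 for TaAffx.113908.1.S1_at. Just outside were Ta.21106.1.A1_at at 2.99, Ta.25837.1.S1_at and Ta.5248.1.S1_x_at at 2.97, TaAffx.12907.1.A1_at and Ta.6936.1.S1_at at 2.95, and Ta.13988.2.S1_at at 2.93. The threshold fell in a continuous run of values.

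**Figure D2:**
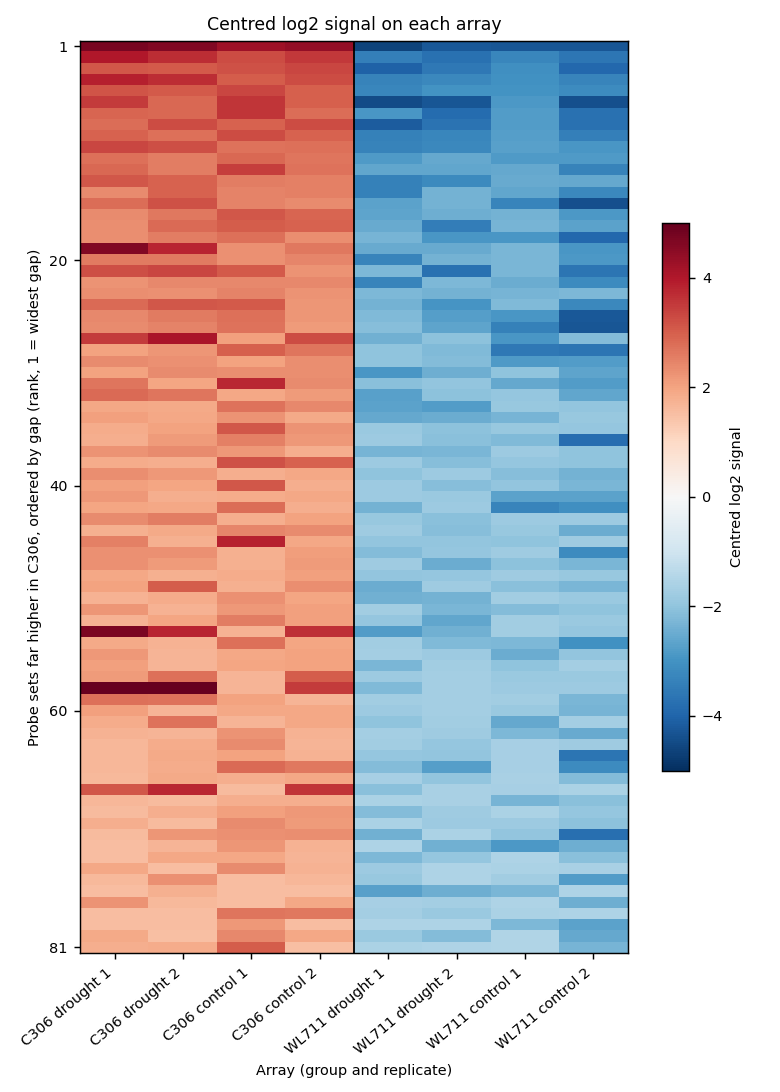
Centred log2 signal of the 81 probe sets (rows, widest gap at the top) on the 8 arrays (columns, C306 drought, C306 control, WL711 drought and WL711 control, replicates 1 and 2 each). Every row is positive on the 4 C306 arrays and negative on the 4 WL711 arrays, as the rule requires, and a few rows are far redder on the C306 drought arrays than on C306 control replicate 1.

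The annotation named few of these probe sets. It paired 3 of the 81 (3.7%) with a gene, against 1273 of all 61179 (2.08%), and each name is a LOC number without a described function in the tables used here. None of 15 gene lists searched for in the annotation held a member, and 8 of those lists matched no gene at all. The members are therefore described by identifier, and no role is given to them.

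Among the 3 annotated members, that of LOC543111 had the narrowest WL711 range, 0.22. In C306 its range was 0.29, beside 0.27 for the member of LOC543418. The member of LOC543111, Ta.22794.1.S1_at, read 1.94 and 1.77 on C306 drought, 1.85 and 2.06 on C306 control, -1.99 and -1.92 on WL711 drought, and -1.77 and -1.88 on WL711 control. Watering moved it little in either cultivar, with drought minus control at -0.10 in C306 and -0.13 in WL711 (SE 0.15 each, limma adjusted p = 0.999989 and 0.739). In WL711 the drought arrays lay below the control arrays without overlap. A probe set of the same source, Ta.22794.1.S1_x_at, fell just short of the rule with a gap of 2.90. The remaining one, Ta.30622.1.S1_x_at, had C306 minus WL711 at 0.016 under drought and -0.31 under control watering. Its probes did not separate the cultivars over all 8 arrays. On the control arrays alone C306 lay lower without overlap.

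LOC780692 had a single probe set on the array, TaAffx.65068.1.A1_at. It read 1.79 and 1.88 on C306 drought, 2.44 and 2.37 on C306 control, -1.79 and -2.14 on WL711 drought, and -1.90 and -2.48 on WL711 control. In C306 the drought arrays lay below the control arrays without overlap, a change of -0.57 in log2 (SE 0.21, adjusted p = 0.523 by limma) that did not pass. In WL711 the arrays overlapped between waterings.

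Identifiers of the array carry information that the rule did not use. The prefix Ta. marks sequences taken from UniGene clusters, and TaAffx. marks sequences from other assemblies. Of the 81 members, 62 (76.5%) had the prefix Ta., against 51.4% of all probe sets. The suffix _x_at, for probe sets that may bind other transcripts, was carried by 10 members (12.3%, against 11.1% of all), and _s_at, for probes shared by several transcripts, by 7 (8.64%, against 4.28%). A source sequence in antisense orientation, marked A, was behind 19 members (23.5%, against 17.4%). These shares are descriptions, since probe sets of one sequence are not independent.

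The number after the prefix groups probe sets of related sequences, called clusters here. The 81 members fell into 72 clusters, of which 48 had no further probe set on the array. In 6 clusters the rule took several probe sets, 15 members in all. The other clusters each gave 1 member.

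Ta.7022 was the largest of these clusters, with 5 of its 6 probe sets taken by the rule. Their gaps were 4.53 for Ta.7022.1.S1_s_at, 4.38 for Ta.7022.2.S1_at, 4.25 for Ta.7022.2.S1_x_at, 3.67 for Ta.7022.3.S1_at and 3.40 for Ta.7022.1.S1_x_at. The remaining probe set, Ta.7022.1.S1_at, had a gap of 2.51. All 6 thus pointed the same way, and the 5 members are better counted as 1 cluster than as 5 observations.

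No drought change in Ta.7022 passed, in either cultivar. Ta.7022.2.S1_x_at read -2.12 and -2.63 on WL711 drought, against -3.37 and -4.30 on WL711 control, a change of 1.46 in log2 (SE 0.32, adjusted p = 0.161 by limma). Ta.7022.1.S1_x_at had a mean of 2.73 ± 0.0015 on C306 drought against 1.85 ± 0.21 on C306 control (SD, n = 2 each), a change of 0.88 (SE 0.20, adjusted p = 0.233). In C306 the change of Ta.7022.2.S1_x_at was 0.010, and in WL711 that of Ta.7022.1.S1_x_at was 0.30.

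The remaining clusters with several members were pairs. In Ta.23366 the probe sets Ta.23366.2.S1_at and Ta.23366.2.S1_x_at had gaps of 5.43 and 5.06. Over all 8 arrays the cultivars overlapped in the other 4 probe sets of the cluster. There C306 minus WL711 lay between -0.88 and 0.83 under drought and between 0.047 and 0.24 under control watering. On the drought arrays alone these 4 did not overlap. C306 was higher in Ta.23366.1.S1_x_at and Ta.23366.1.S1_at, and lower in Ta.23366.3.A1_x_at and Ta.23366.3.A1_at. Ta.7716 gave gaps of 4.72 and 3.52, and TaAffx.33753 gave 3.36 and 3.05. The pair of Ta.19222 differed over watering in WL711: the change was 0.71 (SE 0.16) for Ta.19222.1.S1_at and -0.69 (SE 0.24) for Ta.19222.1.S1_x_at, although both came from one source sequence. Neither passed (limma adjusted p = 0.161 and 0.286).

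In 20 clusters there were 44 probe sets that the rule did not take. Of these, 11 (25%) had all C306 arrays above all WL711 arrays, against 10.2% of all probe sets, and 9 (20.5%) did so by at least 1, against 0.933% of all. Their median C306 minus WL711 difference was 0.10 under drought and 0.14 under control watering. Most probe sets related to a member by number therefore lay near 0, while some followed it closely.

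Ta.2434 held the most divergent case. Its member Ta.2434.1.A1_at read 2.61 and 2.62 on C306 drought, 2.28 and 2.45 on C306 control, -3.29 and -2.37 on WL711 drought, and -2.28 and -2.86 on WL711 control. Ta.2434.3.A1_at of the same cluster ran the opposite way, at -2.63 and -2.70 on C306 drought, -2.94 and -2.70 on C306 control, 3.81 and 3.86 on WL711 drought, and 2.63 and 3.50 on WL711 control. The cultivars did not overlap in either, and C306 minus WL711 was 5.44 under drought and 4.94 under control watering in the member, and -6.50 and -5.88 in Ta.2434.3.A1_at. Ta.2434.3.A1_at was singled out after its values were seen.

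Some probe sets share not only the cluster but the source sequence, and differ in the suffix alone. There were 14 such sources with a member. In 5 of them the rule took several probe sets, and the 10 that held a probe set outside the rule had 11 of these. Of the 11, 6 had a gap above 0 and 5 did not. Ta.22794.1.S1_x_at had a gap of 2.90 beside 3.55 for its member Ta.22794.1.S1_at, and Ta.19858.1.A1_x_at had 2.79 beside 3.60 for Ta.19858.1.A1_at. By contrast, Ta.3784.1.S1_at stood 3.84 higher in C306 under drought and 3.64 under control watering, while Ta.3784.1.S1_x_at read 0.27 and 0.27, and Ta.3784.1.S1_a_at read 0.12 and 0.063. For Ta.11896 the values were 5.37 and 5.61 on Ta.11896.1.A1_s_at, and -0.12 and 0.23 on Ta.11896.1.A1_at. Intermediate values occurred too, with 2.26 and 2.11 on Ta.22966.3.S1_x_at and 0.44 and 1.05 on Ta.2434.1.A1_x_at.

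**Figure D3:**
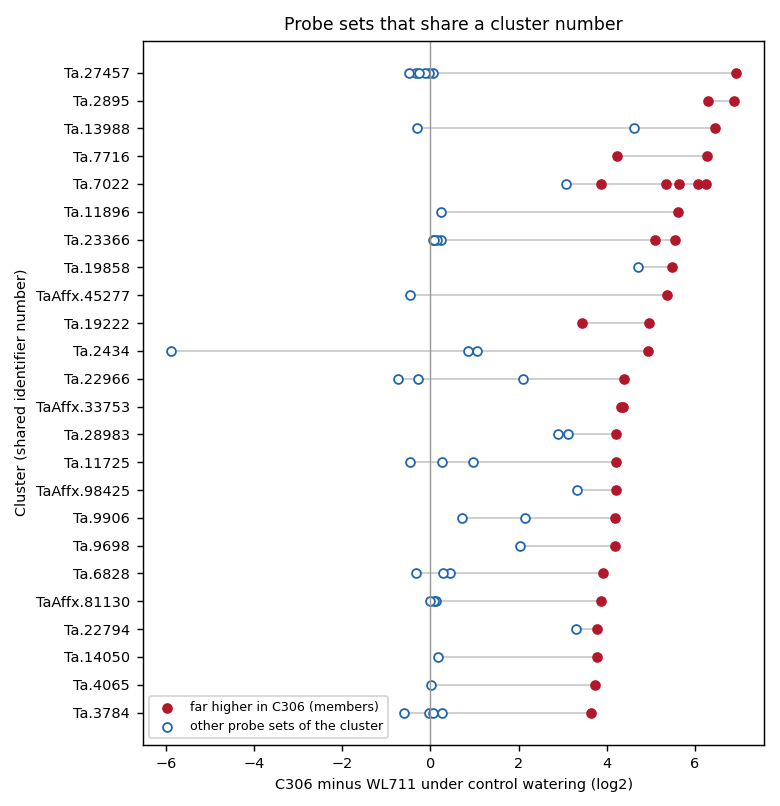
C306 minus WL711 under control watering (log2, horizontal axis) for the probe sets of the 24 clusters that have a member and at least 1 further probe set; filled points are members and open points the other probe sets of the cluster. The 6 probe sets of Ta.7022 all lie to the right, the other probe sets of Ta.27457 lie near 0, and the outlying open point is Ta.2434.3.A1_at at -5.88.

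The members also differed in how steady they were within a cultivar. The range over the 4 C306 arrays ran from 0.16 to 3.76 with a median of 0.69, against 0.34 over all probe sets. The range over the 4 WL711 arrays ran from 0.11 to 2.20 with a median of 0.78, against 0.46 over all probe sets. In 80 of the 81 the gap between the cultivars was wider than the range within either, which the rule's gap of at least 3 nearly fixed in advance. The exception was Ta.23191.1.S1_at, whose C306 range of 3.76 exceeded its gap of 3.40.

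TaAffx.31681.1.S1_at was among the steadiest members in both cultivars. It read 2.33 and 2.27 on C306 drought, 2.49 and 2.26 on C306 control, -2.26 and -2.37 on WL711 drought, and -2.31 and -2.26 on WL711 control. Its range was 0.23 in C306 and 0.11 in WL711, the narrowest in WL711. Ta.4613.1.S1_at had the narrowest C306 range, 0.16, beside 1.05 in WL711. Ta.4745.1.S1_at had 0.24 in C306 and 0.73 in WL711, while TaAffx.11787.1.S1_at and Ta.8878.1.S1_at were narrow in WL711, at 0.16 and 0.21, and wide in C306, at 1.31 and 1.25.

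The widest WL711 ranges were those of Ta.5405.1.S1_x_at, Ta.7022.2.S1_x_at and Ta.7022.2.S1_at, at 2.20, 2.17 and 2.07. All 3 owed their lowest value to WL711 control replicate 2, which read -3.77, -4.30 and -4.26. That array was the lowest WL711 array in 30 members (37%), against 19.5% of all probe sets, and lay at least 1 below the other WL711 arrays in 6 (7.41%, against 0.175%). WL711 control replicate 1 was the highest WL711 array in 35 members (43.2%), against 31.7% of all. These counts were made for each array alone, and how often both held in the same member was not counted. The main fit uses a common estimate of the spread for all groups. Any distance between the WL711 control arrays therefore enters the drought comparisons in both cultivars.

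In C306 the array that stood out was control replicate 1. It was the highest C306 array in 39 members (48.1%), against 34.2% of all probe sets. It lay at least 1 away from the nearest other C306 array in 8 members, above in 4 (4.94%, against 0.432% of all probe sets) and below in 4 (4.94%, against 0.670%), and no other C306 array did so in any member. TaAffx.15296.1.S1_at, where it lay above, read 2.50 and 1.78 on C306 drought, and 3.84 and 1.93 on C306 control. Ta.25701.1.A1_at, where it lay below, read 4.70 and 3.81 on C306 drought, and 1.73 and 3.64 on C306 control.

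Drought was then compared with control within each cultivar, a contrast that the rule did not use. The rule held the cultivars apart but set no order between drought and control arrays of a cultivar. The test was limma over all 8 arrays and all 61179 probe sets, with a Benjamini-Hochberg adjusted p under 0.05 as the threshold.

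In C306 no member changed past the threshold in either direction, against 0.049% of all probe sets called (0.0392% higher and 0.00981% lower). At an unadjusted p under 0.05 there were 20 members (24.7%), against 7.73% of all. The log2 changes ran from -1.23 to 2.78 with a median of -0.089, beside a median of -0.019 over all probe sets. Of the members 32 lay above 0 and 49 below, against 27935 and 33244 of all probe sets. Both drought arrays lay above both control arrays in 18 members (22.2%), against 17.2% of all probe sets, and below them in 20 (24.7%), against 21.5%. The non-overlapping shares were thus close to those of the whole array. A change of at least 0.5 in size was seen in 29.6% of members (12 upward, 12 downward), against 7.31% of all probe sets (2467 upward, 2005 downward). All probe sets may include ones without signal, which centred values cannot show. Members also ranged more widely over the 4 C306 arrays (median 0.69, against 0.34). The larger shares of members by unadjusted p and by size are therefore not read as a drought response, and their cause was not tested.

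The members nearest to passing in C306 lay lower under drought. Ta.11725.2.S1_at read 1.54 and 1.53 on C306 drought, against 2.69 and 2.62 on C306 control, a change of -1.12 in log2 (SE 0.14, adjusted p = 0.0523 by limma). TaAffx.22791.1.S1_at read 1.86 and 1.82 on C306 drought, against 3.19 and 2.96 on C306 control, a change of -1.23 (SE 0.16, adjusted p = 0.0672). In both probe sets the groups lay well apart in C306, whereas in WL711 the changes were -0.21 and 0.017. Without C306 control replicate 2 both passed, at adjusted p = 0.0426 and 0.0341, in a fit whose lone control array is assumed to vary like the other groups. Neither passed without C306 control replicate 1 (0.251 and 0.324), C306 drought replicate 1 (0.234 and 0.239) or C306 drought replicate 2 (0.138 and 0.158). Ta.13988.1.S1_at was the next lowest by moderated t, at -0.70 (SE 0.16, adjusted p = 0.259).

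The highest changes in C306 did not pass either. Ta.16733.1.S1_at read 4.62 and 3.83 on C306 drought, against 2.30 and 2.65 on C306 control, a change of 1.75 (SE 0.29, limma adjusted p = 0.130). Ta.23191.1.S1_at read 5.28 and 5.46 on C306 drought, against 1.70 and 3.49 on C306 control, a change of 2.78 (SE 0.47, adjusted p = 0.134). Its control arrays lay far apart, and both lay below both drought arrays. Without C306 control replicate 2 the change was 3.67 (adjusted p = 0.00224), and without C306 control replicate 1 it was 1.88 (adjusted p = 0.0963). Ta.7022.1.S1_x_at, with values given above, came next by moderated t.

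Leaving out C306 control replicate 2 raised the count of members called in C306 to 6, of which 3 were higher and 3 lower. Besides Ta.23191.1.S1_at, the higher ones were Ta.25701.1.A1_at at 2.52 and Ta.28983.1.S1_at at 1.84, and beside the pair already named the lower one was Ta.8878.1.S1_at at -1.17. The control group then rests on replicate 1 alone, the array that stood apart from the other C306 arrays in Ta.23191.1.S1_at, Ta.25701.1.A1_at and Ta.28983.1.S1_at. Over all probe sets that fit called 421 of 61179, beside 30 with all arrays.

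**Figure D4:**
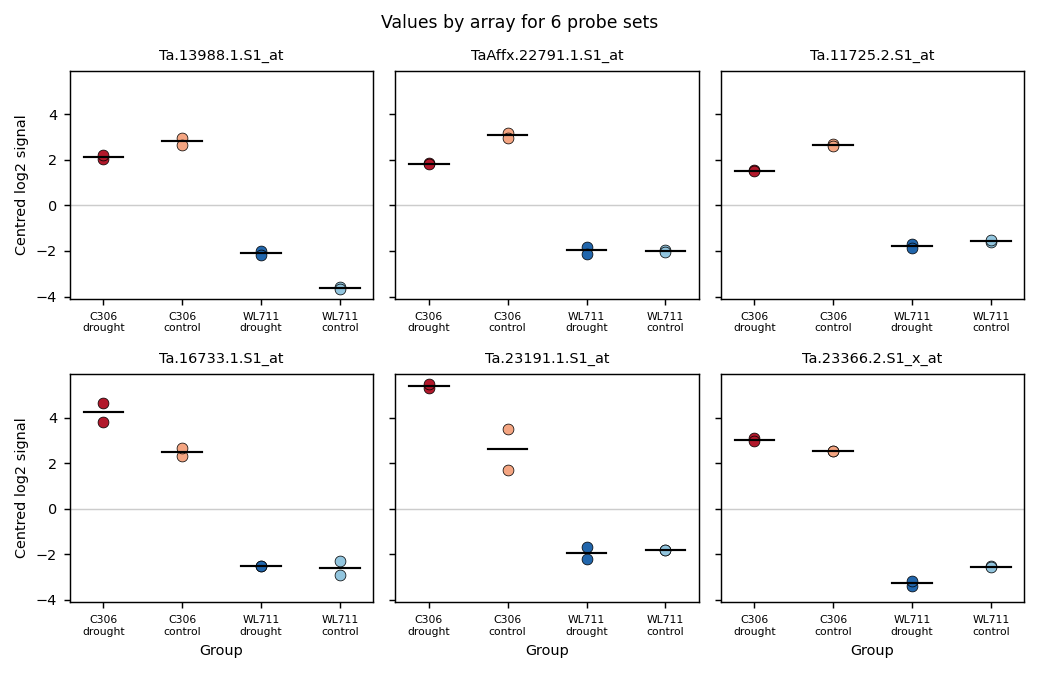
Centred log2 signal (vertical axis) of 6 probe sets in the 4 groups, 1 point per array, with the group mean as a bar. Ta.13988.1.S1_at lies nearer 0 under drought than under control in both cultivars, Ta.11725.2.S1_at and TaAffx.22791.1.S1_at lie lower on C306 drought than on C306 control, Ta.16733.1.S1_at and Ta.23191.1.S1_at lie higher there, and Ta.23366.2.S1_x_at lies farther from 0 under drought in both.

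In WL711, 1 member changed past the threshold (1.23%), against 0.036% of all probe sets. It was higher under drought, as were 0.0163% of all probe sets, while no member was lower, against 0.0196%. At an unadjusted p under 0.05 there were 19 members (23.5%), against 13.8% of all. The log2 changes ran from -0.80 to 1.52 with a median of 0.029, beside a median of -0.018 over all probe sets. Of the members 44 lay above 0 and 37 below, against 29018 and 32161 of all probe sets. Both drought arrays lay above both control arrays in 20 members (24.7%), against 21% of all, and below them in 12 (14.8%), against 22.4%. A change of at least 0.5 in size was seen in 30.9% of members (18 upward, 7 downward), against 10.4% of all probe sets (3797 upward, 2574 downward). The limits given for C306 hold here too, with a median range over the 4 WL711 arrays of 0.78 in members, against 0.46. The larger shares by unadjusted p and by size are not read as a drought response.

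Ta.13988.1.S1_at was the member that rose in droughted WL711. It read -2.02 and -2.19 on WL711 drought, against -3.59 and -3.66 on WL711 control, a change of 1.52 in log2 (SE 0.16, adjusted p = 0.0394 by limma). The replicates of each WL711 group lay close together, and the groups did not overlap. Under 11 of 16 alternatives it no longer passed, among them the removal of any 1 WL711 array or any 1 C306 drought array. The adjusted p ranged from 0.0384 to 0.241 and the change from 1.05 to 1.60.

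Other probe sets of this cluster did not share the call. Ta.13988.2.S1_at, which lay just outside the rule, changed by 0.64 in WL711 (adjusted p = 0.454), with -1.90 and -1.47 on WL711 drought and -1.86 and -2.79 on WL711 control. Ta.13988.3.S1_at changed by -0.45 (limma adjusted p = 0.250) and did not separate the cultivars over all 8 arrays. In it C306 lay lower on the control arrays alone and higher on the drought arrays alone, each without overlap. Ta.13988.3.S1_at was named for its cluster, after the values of Ta.13988.1.S1_at had been seen.

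No member fell past the threshold in WL711. The lowest by moderated t were Ta.6210.1.S1_at, Ta.23366.2.S1_x_at and Ta.6828.1.S1_at. Ta.6210.1.S1_at read -2.67 and -2.81 on WL711 drought, against -1.91 and -1.98 on WL711 control, a change of -0.80 (SE 0.16, limma adjusted p = 0.139). It lay lower under drought in C306 too, by -0.64 (SE 0.16, adjusted p = 0.269), without overlap between waterings in either cultivar. Ta.23366.2.S1_x_at stood at -0.73 (SE 0.15, adjusted p = 0.149) and Ta.6828.1.S1_at at -0.59 (SE 0.16, adjusted p = 0.210).

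The drought effects of the cultivars were then set against each other by the difference of effects, C306 minus WL711, which also says whether the gap between cultivars was wider or narrower under drought. It was wider under drought in 36 members and narrower in 45. Over all probe sets the difference of effects lay above 0 in 31535 and below 0 in 29644. The differences ran from -2.22 to 2.90 with a median of -0.11, beside 0.012 over all probe sets. By the test 1 member passed (1.23%), against 0.0409% of all probe sets. Its difference was below 0, as in 0.00981% of all, and no member passed above 0, against 0.0311%. At an unadjusted p under 0.05 there were 25 members (30.9%), against 9.79% of all. The difference was at least 0.5 in size in 58.0% of members (19 above 0, 28 below), against 17.0% of all probe sets (4527 above 0, 5847 below). The limits given for each cultivar hold here too. The larger shares by unadjusted p and by size are not read as a difference in drought response.

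The member that passed was again Ta.13988.1.S1_at. Its change was -0.70 in C306 and 1.52 in WL711, a difference of -2.22 (SE 0.23, limma adjusted p = 0.0287). C306 stood 4.23 above WL711 under drought and 6.44 above it under control watering. With the replicate number as a block the adjusted p was 0.0506. Under 10 of 15 alternatives it no longer passed, with the difference between -2.49 and -2.06 and the adjusted p between 0.0166 and 0.205. These include the removal of any 1 WL711 array, of C306 drought replicate 1 and of C306 control replicate 1, while without C306 control replicate 2 Ta.23191.1.S1_at and Ta.25701.1.A1_at also passed, at 3.79 and 3.29.

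Members whose gap widened under drought did not pass. Ta.23191.1.S1_at had the widest difference, 2.90 (SE 0.66, limma adjusted p = 0.202), with C306 above WL711 by 7.32 under drought and 4.42 under control watering. Ta.23366.2.S1_x_at read 3.09 and 2.97 on C306 drought, 2.54 and 2.53 on C306 control, -3.39 and -3.17 on WL711 drought, and -2.53 and -2.58 on WL711 control. Its drought arrays lay outside its control arrays in both cultivars and in opposite directions, a difference of 1.22 (SE 0.21, adjusted p = 0.112). Its partner Ta.23366.2.S1_at gave 1.01 (SE 0.21, adjusted p = 0.171), from the same source sequence.

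Sorted by overlap alone, 29 members (35.8%) showed overlapping drought and control arrays in both cultivars, against 34.6% of all probe sets. Drought lay clear of control in both cultivars in 18 (22.2%), against 16.7%. It was higher in both in 3 (3.7%, against 4.36% of all) and lower in both in 4 (4.94%, against 4.8%). In 5 it was higher in C306 and lower in WL711 (6.17%, against 3.21%), and in 6 lower in C306 and higher in WL711 (7.41%, against 4.35%). Those higher in both were Ta.12707.1.A1_a_at, Ta.7022.1.S1_x_at and Ta.7716.1.S1_at. Those lower in both were Ta.11725.2.S1_at, Ta.6210.1.S1_at, Ta.6828.1.S1_at and TaAffx.113612.1.S1_at. These names were chosen after the values were seen, and no direction was common to most of the members.

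**Figure D5:**
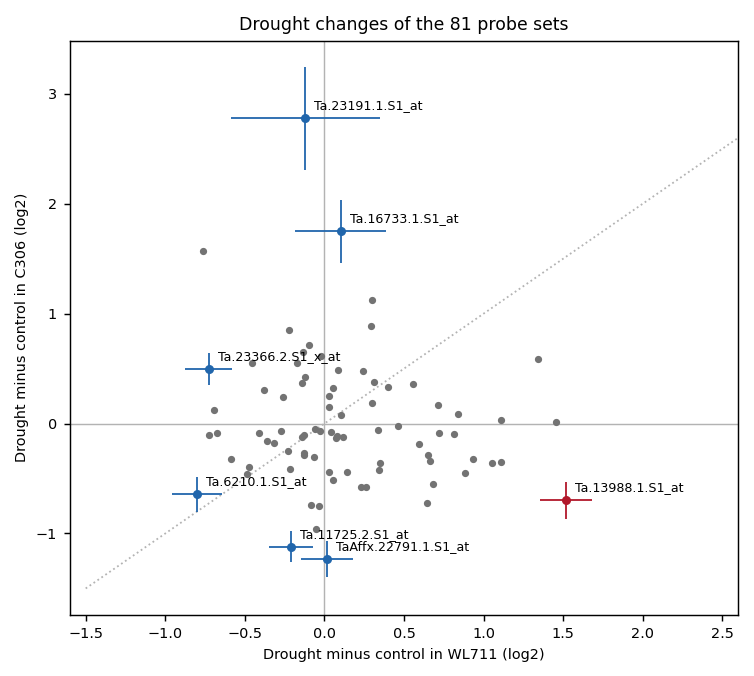
Drought minus control in C306 (vertical axis, log2) against drought minus control in WL711 (horizontal axis, log2) for the 81 probe sets; the dotted line marks equal changes, and bars on 7 named points are limma standard errors. Ta.13988.1.S1_at (red) lies at 1.52 in WL711 and -0.70 in C306, Ta.23191.1.S1_at and Ta.16733.1.S1_at lie highest in C306, and most points lie within 1 of 0 on both axes.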

How the data were processed

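The authors deposited log2 values from RMA, per the submitters' processing notes (its version is not given in the sources used here). That each probe set was then centred on its median over the 8 arrays was read from the values, with a largest absolute median of 5e-07, and removes absolute signal. From these values the gap between cultivars was computed for 61179 probe sets. limma 3.58.1 in R 4.3.3 fitted 4 group means over 8 arrays (4 residual and 4.63 prior degrees of freedom), with eBayes and Benjamini-Hochberg adjustment over all probe sets. SE is limma's moderated standard error. Tested on simulated data, the fit gave nearly all planted changes their right direction, and its share of false calls averaged above the nominal level in each drought contrast and in their difference. The planted changes were larger than most changes of the members and lay over normal noise. Their direction was thus nearly fixed in advance. The number of arrays limits the precision.

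Members and lists were chosen with earlier results of these data known. Named probe sets were the annotated ones, the 12 widest and 6 narrowest gaps, the 6 just outside, the 3 widest and 3 narrowest ranges per cultivar, and, per contrast and direction, those past the threshold or the 3 most extreme by moderated t. Others are said to be chosen by their values. The platform annotation gave 1 gene for 1273 probe sets and none for 59906, and 770 of its 771 genes were found by gene number in the IWGSC CS RefSeq v2.1 table, used for names only. Differences between replicates 1 and 2 correlated at -0.093 to 0.11 between groups, so no pairing by replicate number was evident over all probe sets. An effect shared by a few probe sets would not show in these correlations. With the replicate number as a block, limma called 81 of all probe sets in the WL711 drought contrast, beside 22 without it.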

Additional observations from a re-analysis of the deposited data

Results flagged for a closer look

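Ta.13988.1.S1_at was the one member whose drought effect differed between the cultivars by the test of the difference itself, at -2.22 (log2, C306 effect minus WL711 effect, SE 0.23, limma adjusted p = 0.0287). Both C306 drought arrays lay below both C306 control arrays, and both WL711 drought arrays lay above both WL711 control arrays. Groups held 2 arrays each, too few for a search for outlying samples.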

How the results depend on the processing

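The rule found 198 probe sets at a gap of 2, 30 at a gap of 4, 144 when group means had to be 3 apart under both waterings, and 44 after quantile normalization once more, where the cause was not tested. It found 83 to 106 without 1 array, a direction fixed in advance, since leaving out an array cannot narrow a gap. The count of members changed in C306 was 0 and became 2 after quantile normalization and with array weights (all lower), 1 with low hybridisation controls as a block (chosen after seeing the data, higher), and 0 to 6 without 1 array. The count in WL711 was 1 and became 0 after quantile normalization, with eBayes trend and robust, with array weights, in a fit on the 4 arrays compared, and with low hybridisation controls as a block, and 0 to 1 without 1 array. With the replicate number as a block it was 1 in WL711 and 0 in C306. The count of members whose drought effects differed was 1 and became 0 with the replicate block, after quantile normalization, with eBayes trend and robust and with low hybridisation controls as a block, and 0 to 3 without 1 array. The removal of probe sets with a low mean was not run, since centred means do not measure brightness. Of the 14 drought changes and differences that were recomputed under these alternatives, 14 kept their direction. This was largely fixed in advance. Many alternatives alter the standard error or the adjustment and leave the change as it was, and the 14 were chosen as past the threshold or most extreme. The direction of the other changes printed was not followed. Signal over background is unknown here, and 2 arrays a group limit every test.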
